A study of Mus musculus with 12 samples.

Results

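Matrix metalloproteinases, the related ADAMTS proteases and the tissue inhibitors of metalloproteinases were followed in mouse kidney RNA. The set holds every gene of the deposited table whose symbol is Mmp, Adamts or Timp with a number: 21 Mmp genes, 19 Adamts genes and 4 Timp genes, 44 of 33188 genes in all. Each group had 4 kidney libraries from wild-type (WT) mice. CTL is the control group. HUA is a hyperuricemia model made with potassium oxonate, which blocks the breakdown of uric acid, and hypoxanthine, a precursor of uric acid. XZSW mice had this model and received Xin-Zi-Sheng-Wan decoction, a herbal preparation whose effect on renal injury the study set out to measure. The sources used here give no strain, age, sex, dose or time. The labels do not say whether each library is a different mouse, so the p-values reflect only the spread among these libraries, which may be technical.

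Matrix metalloproteinases are zinc enzymes that cut collagens, laminins, proteoglycans and many cell surface proteins. Most are secreted as inactive precursors, and some are anchored in the cell membrane. ADAMTS proteases are secreted enzymes with thrombospondin repeats, and they cut proteoglycans such as versican and aggrecan, trim procollagens or process fibrillin and von Willebrand factor. TIMPs bind the active site of these enzymes and block it, and Timp3, which stays bound to the matrix, also blocks several ADAMTS enzymes. RNA levels give no measure of enzyme activity, which also depends on activation of the precursors.

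Depth was 51.6 to 74.3 M counts per library. Within a gene, levels are given as CPM, counts scaled to library size with TMM factors, and between genes as the authors' FPKM, which divides by transcript length. FPKM carries no TMM factors. On log2(FPKM + 1), changes in HUA against CTL were higher than with TMM by a median of 0.26 log2 units over all genes. Changes were tested with edgeR over 19772 genes in all 12 libraries, and a gene is said to have risen or fallen at a Benjamini-Hochberg adjusted p under 0.05. Of the 44 genes, 35 passed the filter on low counts: 16 Mmp, 4 Timp and 15 Adamts genes. Libraries were not alike in base composition. In HUA2, HUA3, HUA4, XZSW3 and XZSW4, counts leaned to GC-rich transcripts by 0.1994 to 0.3156 log2 units per 10% GC, against -0.0574 to 0.0413 in the other libraries. All 4 CTL libraries were of the flat kind, so values from flat libraries alone are given beside several results. These are 4 CTL, 1 HUA and 2 XZSW libraries, and the lone HUA library is taken to vary like the others. The table letters N and M do not abbreviate HUA and XZSW, and the sample descriptions are the one link between them.

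In HUA kidneys, 13 of the 35 tested genes rose against CTL and 1 fell. Over all tested genes 14.9% rose and 12.8% fell, 27.8% in either direction. The risers were Timp1, Mmp7, Mmp14, Mmp19, Mmp23, Mmp24, Mmp25, Adamts1, Adamts2, Adamts4, Adamts5, Adamts12 and Adamts16, and the gene that fell was Adamts15. Mmp24 and Mmp25 had almost no CTL counts and passed the filter through HUA and XZSW libraries, so they could not be called lower in HUA. The median log2 change was 0.95 for the 35 genes and 0.06 for all tested genes. With decoction, 5 genes fell against HUA (Timp1, Mmp7, Mmp14, Adamts1 and Adamts4), where 8.34% of all tested genes fell, and 2 rose (Adamts15 and Adamts10), where 7.09% of all tested genes rose and 15.4% changed in either direction. Each of these 5 had risen in HUA, and Adamts15 had fallen there. The comparisons share the HUA libraries, so a gene that is extreme in them moves in opposite directions in both.

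**Figure D1:**
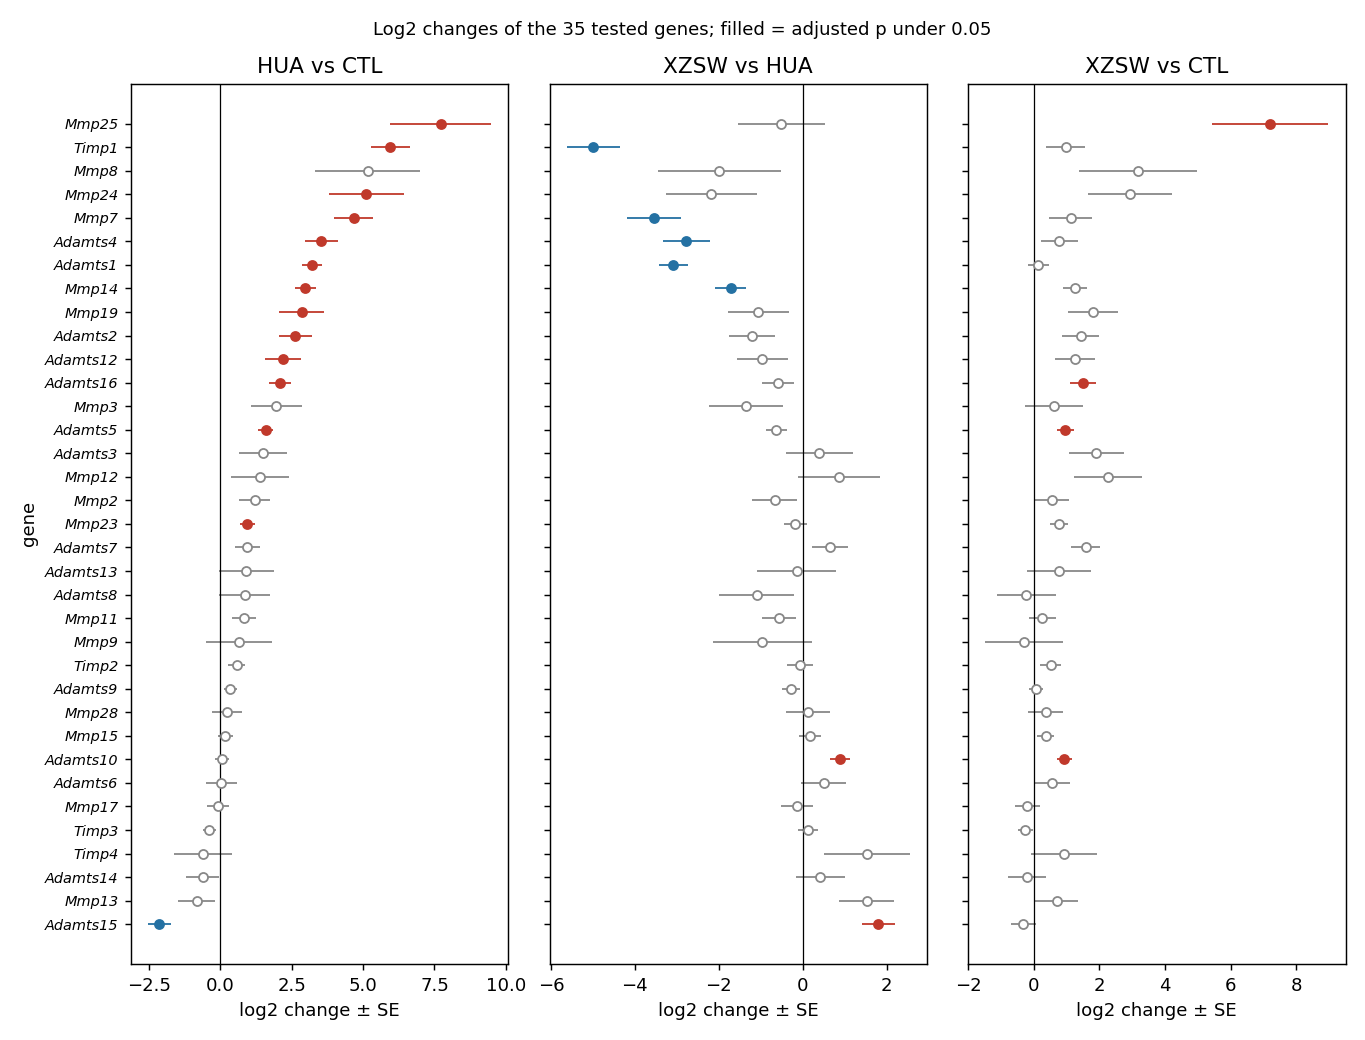
Log2 change of each tested gene (points, bars show 1 standard error from edgeR) for 3 panels (HUA minus CTL, XZSW minus HUA, XZSW minus CTL), with filled points for genes past the adjusted p of 0.05. Filled points lie to the right of 0 for 13 genes and to the left for Adamts15 in HUA against CTL, and to the left for 5 genes and to the right for 2 in XZSW against HUA.

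The 5 genes that rose in HUA and fell with decoction moved together across the groups. For this reason, the stretches upstream of all of them but Adamts4 are shown. They are RefSeq sequences of build GRCm38.p6, 5′ to 3′ on the gene's strand, each ending on the base before the RefSeq start. Capitals mark GC box letters (GGGCGG or its reverse), TATA box letters (TATAAA) and AP-1 letters (TGANTCA).

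Timp1, chrX:20869966-20870165, plus strand: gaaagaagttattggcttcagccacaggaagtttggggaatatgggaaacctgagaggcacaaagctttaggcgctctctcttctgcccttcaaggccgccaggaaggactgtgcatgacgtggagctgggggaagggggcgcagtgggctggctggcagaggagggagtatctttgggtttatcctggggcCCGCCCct
Mmp14, chr14:54431398-54431597, plus strand: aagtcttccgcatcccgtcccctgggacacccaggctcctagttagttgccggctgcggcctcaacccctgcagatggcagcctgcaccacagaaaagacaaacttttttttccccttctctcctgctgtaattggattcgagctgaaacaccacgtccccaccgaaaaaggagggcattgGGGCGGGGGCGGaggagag
Adamts1, chr16:85803114-85803313, minus strand: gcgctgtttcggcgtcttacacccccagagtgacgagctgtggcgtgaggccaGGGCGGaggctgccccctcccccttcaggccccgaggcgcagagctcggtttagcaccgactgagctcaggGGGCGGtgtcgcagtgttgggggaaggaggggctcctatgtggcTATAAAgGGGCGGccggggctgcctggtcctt
Mmp7, chr9:7691890-7692089, plus strand: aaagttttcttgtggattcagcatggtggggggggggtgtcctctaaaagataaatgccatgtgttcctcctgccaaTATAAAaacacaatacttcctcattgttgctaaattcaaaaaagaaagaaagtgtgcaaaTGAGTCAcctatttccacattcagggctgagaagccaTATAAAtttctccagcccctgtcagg

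The 4 stretches do not share a layout. Timp1 and Mmp14 carry GC box letters close to the start and no TATA box letters, Adamts1 carries both, and Mmp7 carries TATA box and AP-1 letters with no GC box. In windows from 250 bases before to 50 bases after a RefSeq start, searched on both strands, GC box letters occurred in 35.7% of 32851 windows, TATA box letters in 13.6% and AP-1 letters in 7.81%. STAT letters (TTCNNNGAA) occurred in 8.3% of windows and, among the set, in Mmp23. Windows were found for 30 of the 44 genes. Of these 30, 18 held GC box letters, 9 TATA box letters and 6 AP-1 letters. A match describes letters in a window and shows no binding.

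The 6 genes with AP-1 letters are all Mmp genes of a single cluster on chromosome 9, which holds 8 Mmp genes within 427.1 kb. The AP-1 letters of each are shown in capitals within 41 bases to set Mmp7 beside its neighbours. The Mmp12 stretch comes from a start inside the gene.

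Mmp13, chr9:7272462-7272502, plus strand: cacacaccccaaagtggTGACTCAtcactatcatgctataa
Mmp12, chr9:7347313-7347353, plus strand: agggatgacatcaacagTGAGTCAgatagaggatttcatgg
Mmp3, chr9:7445759-7445799, plus strand: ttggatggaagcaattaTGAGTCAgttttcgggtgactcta
Mmp10, chr9:7502262-7502302, plus strand: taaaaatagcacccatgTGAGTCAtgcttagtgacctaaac
Mmp20, chr9:7628119-7628159, plus strand: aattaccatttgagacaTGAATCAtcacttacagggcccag
Mmp7, chr9:7692010-7692050, plus strand: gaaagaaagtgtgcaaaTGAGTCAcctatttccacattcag

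Of these 6 genes Mmp7 rose in HUA. Mmp3, Mmp12 and Mmp13 did not pass, and Mmp10 and Mmp20 were too low to be tested.

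Among the inhibitors, Timp1 changed most. Timp1 (ENSMUSG00000001131, chrX:20870166-20874735, GRCm38) encodes a secreted inhibitor of most matrix metalloproteinases that is induced by cytokines and growth factors. It read 0.777, 0.298, 0.388 and 0.436 CPM in CTL1 to CTL4, and 11.7, 16.7, 63.7 and 26.7 CPM in HUA1 to HUA4. In XZSW1 to XZSW4 it read 1.27, 0.276, 0.626 and 1.58 CPM. Every HUA library lay above every CTL and XZSW library, and the XZSW range overlapped the CTL range. Timp1 rose in HUA by 5.96 log2 units (SE 0.67, edgeR adjusted p = 8.76e-05) and with decoction fell by 4.99 (SE 0.63, edgeR adjusted p = 0.000621). XZSW differed from CTL by 0.97 (SE 0.60, edgeR adjusted p = 0.363), which leaves the sign of that difference undecided. HUA3 was the highest library, and without it the changes were 5.30 and -4.31. In flat libraries alone, the rise was 4.62 (edgeR adjusted p = 0.00243) and the fall -3.90 (edgeR adjusted p = 0.0217).

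Timp3 (chr10:86300372-86349506), the matrix-bound inhibitor, was the most abundant gene of the set per transcript length in every group. Its group means were 206 FPKM in CTL, 201 FPKM in HUA and 200 FPKM in XZSW. In CPM it read 2150, 1910, 2290 and 2100 in CTL, 2170, 1680, 1480 and 1190 in HUA, and 2540, 1970, 1260 and 1280 in XZSW. The groups overlapped, and the HUA value was -0.38 log2 units from CTL (SE 0.24, edgeR adjusted p = 0.265). In both HUA and XZSW the lower Timp3 values belonged to libraries that leaned to GC-rich transcripts. With library totals in place of TMM, HUA differed from CTL by -0.05. XZSW differed from HUA by 0.12 with TMM and by -0.06 with library totals.

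Timp2 (chr11:118301069-118355740), which inhibits metalloproteinases and also helps Mmp14 to activate pro-Mmp2, read 18.1, 26.0, 17.1 and 22.0 CPM in CTL. It read 33.0, 35.7, 41.3 and 13.4 CPM in HUA, and 26.4, 18.1, 34.2 and 39.5 CPM in XZSW. The first 3 HUA libraries lay above CTL and HUA4 lay below it. The HUA change of 0.57 did not pass (edgeR adjusted p = 0.195). Without HUA4 it was 0.85 (edgeR adjusted p = 0.023), and with library totals 0.90 (edgeR adjusted p = 0.0421). With the library kind as a term it was 0.33 (edgeR adjusted p = 0.568), and in flat libraries alone 0.67. Timp4, an inhibitor of narrower tissue distribution, was low, at 0.425, 0.0397, 0.237 and 0.419 CPM in CTL, 0.336, 0.0436, 0.117 and 0.236 CPM in HUA, and 1.77, 0.107, 0.117 and 0.135 CPM in XZSW. It passed in no comparison, and XZSW1 alone held 124 of its 147 XZSW counts.

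Set side by side per transcript length, the inhibitor pool was mostly Timp3 RNA. Timp3 made up 97.1 to 98.3% of the summed Timp FPKM in CTL, 68.7 to 92.5% in HUA and 93.0 to 98.0% in XZSW. Timp1 made up 0.13 to 0.315% in CTL, 4.58 to 27.2% in HUA and 0.124 to 1.03% in XZSW. Timp1 came closest to Timp3 in HUA3, at 73.9 against 186 FPKM. In HUA1, HUA2 and HUA4 it stood at 13.2 against 266, 18.8 against 205 and 30.3 against 147 FPKM. The summed Timp FPKM was 210 ± 22.1 in CTL, 243 ± 47.4 in HUA and 208 ± 67.2 in XZSW (SD, n = 4), and these ranges overlapped. FPKM carries no TMM scaling. Mean Timp3 CPM, which does, was 2120 in CTL, 1630 in HUA and 1770 in XZSW.

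**Figure D2:**
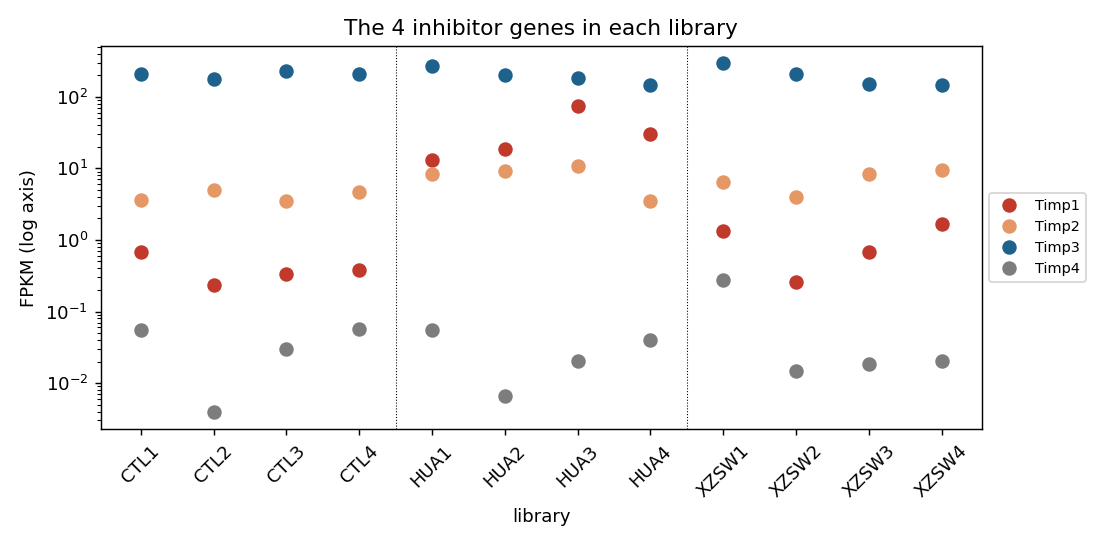
FPKM (log axis) of the 4 Timp genes in each library, by group. Timp3 stays between 147 and 294 FPKM in all 12 libraries, and Timp1 moves from 0.234 to 0.669 FPKM in CTL up to 13.2 to 73.9 FPKM in HUA and is at 0.262 to 1.65 FPKM in XZSW.

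Mmp14 had the highest FPKM of the Mmp genes in HUA. Mmp14 (ENSMUSG00000000957, chr14:54431612-54441265, GRCm38) encodes a membrane-anchored collagenase that activates pro-Mmp2 at the cell surface. It read 3.53, 5.06, 4.37 and 4.54 CPM in CTL, 28.5, 27.9, 55.0 and 26.8 CPM in HUA, and 6.58, 4.83, 15.9 and 14.7 CPM in XZSW. All HUA libraries lay above all XZSW libraries, and among the XZSW libraries only XZSW2 lay within the CTL range. Mmp14 rose in HUA by 2.98 log2 units (SE 0.38, edgeR adjusted p = 0.000187) and with decoction fell by 1.72 (SE 0.36, edgeR adjusted p = 0.008). The value left against CTL was 1.26 (SE 0.36, edgeR adjusted p = 0.0618). That remainder lay mostly in XZSW3 and XZSW4, which leaned to GC-rich transcripts, and in flat libraries alone it was 0.41 (edgeR adjusted p = 0.232). Over all libraries it passed with DESeq2 (1.28, adjusted p = 0.00829), with library totals (1.45, edgeR adjusted p = 0.0402), with only the 8 libraries compared (1.27, edgeR adjusted p = 0.0408) and without XZSW2 (edgeR adjusted p = 0.0334). With a filter of 1 CPM it was at the threshold (1.27, edgeR adjusted p = 0.05). In the same flat libraries the rise in HUA was 2.71 (edgeR adjusted p = 0.000375) and the fall -2.30 (edgeR adjusted p = 0.00347).

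Of the gelatinases, neither Mmp2 nor Mmp9 passed the test. Mmp2, which cuts denatured collagen and basement membrane and is activated through Mmp14, read 3.11, 4.90, 2.43 and 4.07 CPM in CTL. In HUA it read 5.72, 11.2, 14.1 and 2.38 CPM, and in XZSW 2.78, 2.10, 8.72 and 7.47 CPM. HUA4 was below every CTL library while the other 3 were above, and the change of 1.20 did not pass (edgeR adjusted p = 0.117). Without HUA4 it was 1.54 (edgeR adjusted p = 0.0356), and with library totals 1.54 (edgeR adjusted p = 0.0447). With the library kind as a term it was 0.25 (edgeR adjusted p = 0.777), and in flat libraries alone 0.66. Mmp9, a gelatinase known from neutrophils and macrophages, stayed low at 0.721, 0.278, 0.129 and 0.369 CPM in CTL, 1.07, 0.276, 0.598 and 0.428 CPM in HUA, and 0, 0, 0.175 and 1.05 CPM in XZSW. It did not pass in any of the 3 comparisons, with a change of 0.66 in HUA (edgeR adjusted p = 0.722). In flat libraries alone, Mmp9 in XZSW was -9.03 from HUA and -7.52 from CTL. These sizes rest on 2 XZSW libraries at 0 and, for HUA, on HUA1, its highest HUA library. In the libraries that leaned to GC-rich transcripts, XZSW differed from HUA by 0.50 (edgeR adjusted p = 0.789).

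Mmp7 rose from near 0. Mmp7 (ENSMUSG00000018623, chr9:7692090-7699585, GRCm38), matrilysin, is a small secreted protease of epithelial cells that cuts E-cadherin among other targets. It read 0, 0.159, 0.172 and 0.302 CPM in CTL, 5.42, 2.54, 2.69 and 5.79 CPM in HUA, and 0.285, 0.475, 0.364 and 0.271 CPM in XZSW. These values rest on 34, 1231 and 92 counts summed over the 4 libraries of CTL, HUA and XZSW. HUA stood clear of both other groups. Mmp7 rose by 4.67 log2 units (SE 0.69, edgeR adjusted p = 0.000494) and with decoction fell by 3.55 (SE 0.64, edgeR adjusted p = 0.00395). In flat libraries alone the rise was 5.08 (edgeR adjusted p = 0.00783), and the fall of -3.81 did not pass (edgeR adjusted p = 0.0781). Per transcript length it reached 3.86 FPKM in HUA, the second highest Mmp gene there.

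The other 7 Mmp genes of the chromosome 9 cluster were low in all groups, and no adjusted p from edgeR passed in any comparison. At an unadjusted p under 0.05, Mmp8 and Mmp3 passed in HUA against CTL, Mmp13 in XZSW against HUA and Mmp12 in XZSW against CTL. Mmp13 and Mmp8 are collagenases, Mmp3 and Mmp10 stromelysins, Mmp12 the macrophage elastase and Mmp20 the enamel protease. Mmp8 read 0 to 0.067 CPM in CTL, 0 to 1.92 CPM in HUA and 0 to 0.491 CPM in XZSW, and its HUA change just missed (edgeR adjusted p = 0.0511). Mmp3 read 0 to 0.61 CPM in CTL, 0.536 to 1.87 CPM in HUA and 0.123 to 0.83 CPM in XZSW (edgeR adjusted p = 0.126 for HUA against CTL). Mmp12 spread widely within groups, with 0.074 to 0.813 CPM in CTL, 0.192 to 3.07 CPM in HUA and 0.0855 to 6.35 CPM in XZSW. Mmp13 read 0.516 to 1.44 CPM in CTL, 0.162 to 0.858 CPM in HUA and 0.499 to 3.05 CPM in XZSW, with XZSW4 the highest library for both. Mmp10, Mmp20 and Mmp27 did not enter the test. Mmp10 had 41 counts in all, each of them in HUA3, and HUA4 held 91 of the 105 HUA counts of Mmp27. Mmp20 had 38 counts in HUA, 12 in XZSW and 0 in CTL.

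Of the remaining Mmp genes, Mmp19 and Mmp23 rose in HUA. Mmp19, a widely expressed secreted enzyme, read 0.240, 0.377, 0 and 0.503 CPM in CTL, 1.61, 1.35, 4.25 and 1.00 CPM in HUA and 1.35, 0.398, 1.17 and 1.03 CPM in XZSW. All HUA libraries were above CTL, HUA3 by the widest margin. The change was 2.85 (SE 0.79, edgeR adjusted p = 0.0165), and without HUA3 it was 2.25 (edgeR adjusted p = 0.0623). With the library kind as a term it was 2.55 (edgeR adjusted p = 0.0723). Mmp23, a membrane-linked member of unusual domain order, read 3.13, 3.13, 2.41 and 3.03 CPM in CTL, 3.60, 6.05, 6.39 and 6.57 CPM in HUA and 4.37, 3.23, 7.22 and 5.18 CPM in XZSW. It rose by 0.95 (SE 0.27, edgeR adjusted p = 0.0202). The 3 high HUA libraries were those that leaned to GC-rich transcripts, and in flat libraries alone the value was 0.30 (edgeR adjusted p = 0.573).

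The membrane-anchored Mmp24 and Mmp25 had almost no counts in CTL. Mmp25, a GPI-anchored enzyme known from leukocytes, was 0 in all CTL libraries and read 0.511, 0.785, 0.329 and 0 CPM in HUA and 0.513, 0.306, 0.146 and 0.169 CPM in XZSW. Against a floor of 3 counts over the CTL group it was at least 28.6-fold higher in HUA and at least 20.3-fold higher in XZSW (edgeR adjusted p = 0.00895 and 0.0469). Both genes passed the filter on low counts through HUA and XZSW libraries. Against CTL they could therefore be called higher or not called, and their calls are no independent evidence of direction. Mmp24 had 5 CTL counts, all in CTL1, and read 0.448, 0.349, 1.77 and 0.945 CPM in HUA and 0, 0.260, 0.160 and 0.356 CPM in XZSW (edgeR adjusted p = 0.0113 for HUA against CTL). Mmp24 lies opposite BC029722, whose summed counts were 7773, 16826 and 9414 in CTL, HUA and XZSW. Whether reads of that neighbour entered the Mmp24 counts was not tested, because the strand setting of the counting is not given in the sources used here.

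Mmp11, Mmp15, Mmp17 and Mmp28 were detected in every library and did not pass in any comparison. Mmp15 and Mmp17 are membrane-anchored, Mmp11 is activated inside the cell by furin, and Mmp28 is epilysin. Their HUA changes were 0.83, 0.18, -0.07 and 0.24. Mmp16 and Mmp21 did not enter the test, with at most 8 counts in any library. Summed over the 21 Mmp genes, the level was 4.73 ± 0.536 FPKM in CTL, 20.3 ± 4.93 FPKM in HUA and 9.30 ± 4.23 FPKM in XZSW (SD, n = 4).

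**Figure D3:**
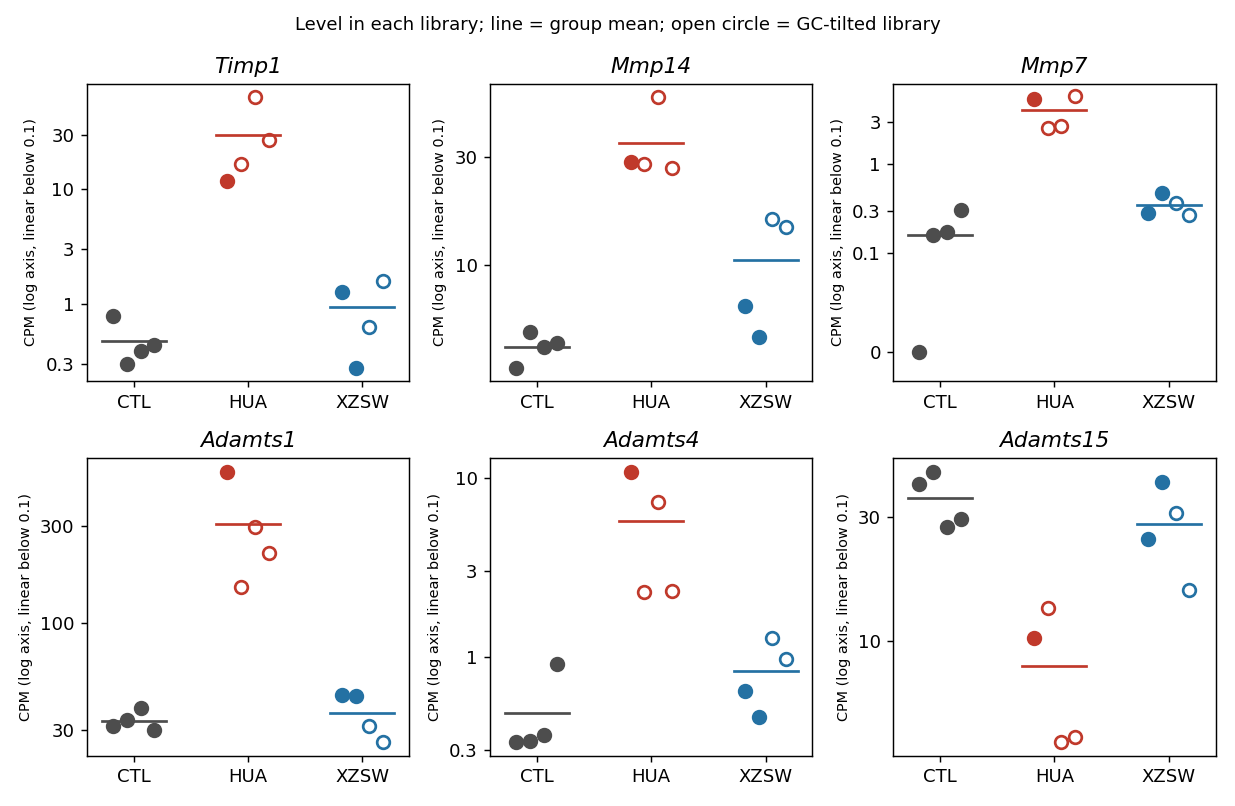
CPM (log axis, linear below 0.1) in each library for Timp1, Mmp14, Mmp7, Adamts1, Adamts4 and Adamts15, by group, with the group mean as a line and open circles for libraries that leaned to GC-rich transcripts. HUA lies above CTL and XZSW in the first 5 genes and below them in Adamts15.

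Among the ADAMTS genes, Adamts1 had the highest FPKM in every group, and it rose in HUA and fell with decoction. Adamts1 (ENSMUSG00000022893, chr16:85793827-85803113, GRCm38) encodes a secreted protease that cuts versican and aggrecan. It read 31.2, 33.3, 38.5 and 29.9 CPM in CTL, 559, 151, 297 and 223 CPM in HUA, and 44.3, 43.8, 31.3 and 26.0 CPM in XZSW. The HUA libraries differed widely among themselves, yet the lowest lay far above every CTL and XZSW library. Adamts1 rose by 3.21 log2 units (SE 0.35, edgeR adjusted p = 6.89e-05) and with decoction fell by 3.08 (SE 0.34, edgeR adjusted p = 0.000384). XZSW differed from CTL by 0.13 (SE 0.32, edgeR adjusted p = 0.847). In flat libraries alone that difference was 0.43 (edgeR adjusted p = 0.0424), since the 2 XZSW libraries of that kind lay above CTL. Adamts1 supplied 38.4 to 50.1% of the summed Adamts FPKM in CTL, 74.7 to 90.9% in HUA and 33.7 to 47.9% in XZSW. The sum itself was 11.3 ± 0.920 FPKM in CTL, 68.0 ± 34.3 FPKM in HUA and 16.1 ± 2.26 FPKM in XZSW (SD, n = 4).

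Adamts4 and Adamts5 are the main aggrecan-cutting enzymes. Adamts4 (chr1:171250421-171260637) read 0.333, 0.337, 0.366 and 0.905 CPM in CTL, 10.8, 2.30, 7.32 and 2.32 CPM in HUA and 0.641, 0.460, 1.27 and 0.965 CPM in XZSW. HUA stood above both groups, with HUA1 and HUA3 well above HUA2 and HUA4. Adamts4 rose by 3.54 log2 units (SE 0.59, edgeR adjusted p = 0.00103) and with decoction fell by 2.77 (SE 0.57, edgeR adjusted p = 0.00731).

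Adamts5 (chr16:85856173-85901828), which lies 53.1 kb from Adamts1, read 2.28, 4.38, 4.54 and 3.82 CPM in CTL, 9.95, 12.1, 15.0 and 7.99 CPM in HUA and 6.15, 7.54, 8.87 and 6.67 CPM in XZSW. The XZSW libraries lay between the groups, all above CTL and all but XZSW3 below HUA. It rose in HUA by 1.59 log2 units (SE 0.26, edgeR adjusted p = 0.000834). The drop with decoction was -0.63 and did not pass (edgeR adjusted p = 0.112), and XZSW was 0.96 above CTL (edgeR adjusted p = 0.0475).

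Adamts15 ran the other way. This versican- and aggrecan-cutting protease (ENSMUSG00000033453, chr9:30899155-30922452, GRCm38) read 40.0, 44.6, 27.4 and 29.4 CPM in CTL, 10.3, 13.4, 4.12 and 4.31 CPM in HUA and 24.6, 40.7, 31.1 and 15.7 CPM in XZSW. Every HUA library was below every CTL and XZSW library. In HUA it fell by 2.13 log2 units (SE 0.39, edgeR adjusted p = 0.0017) and rose with decoction by 1.80 (SE 0.39, edgeR adjusted p = 0.00902). XZSW differed from CTL by -0.33 (edgeR adjusted p = 0.643). Adamts8, its neighbour 20.1 kb away, stayed at or under 0.386 CPM in all libraries and did not pass. Per transcript length, Adamts15 was the second Adamts gene after Adamts1 in CTL, at 2.67 against 4.95 FPKM.

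Adamts2 and Adamts16 rose in HUA and did not pass in XZSW against HUA. Adamts2, which removes the amino-terminal propeptide of fibrillar procollagens, read 1.07, 0.912, 1.74 and 0.519 CPM in CTL, 4.72, 6.21, 11.8 and 3.59 CPM in HUA and 1.25, 0.950, 4.33 and 4.93 CPM in XZSW. All HUA libraries were above CTL, and XZSW split into libraries within the CTL range and libraries within the HUA range, the latter being those that leaned to GC-rich transcripts. It rose by 2.63 (SE 0.59, edgeR adjusted p = 0.00512), and its change with decoction was -1.20 (edgeR adjusted p = 0.165). Adamts16, a gene linked to kidney development and blood pressure, read 2.81, 2.06, 1.74 and 1.21 CPM in CTL, 3.35, 9.06, 9.10 and 12.1 CPM in HUA and 7.28, 5.03, 6.53 and 3.32 CPM in XZSW. It rose by 2.10 (SE 0.39, edgeR adjusted p = 0.00186). The flat library HUA1 was the lowest of its group, and flat libraries alone gave 0.78 (edgeR adjusted p = 0.265).

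Adamts10 rose with decoction and did not pass in HUA against CTL. Adamts10, which binds and processes fibrillin, read 8.69, 9.96, 9.80 and 10.3 CPM in CTL, 7.15, 13.8, 10.9 and 8.28 CPM in HUA and 12.9, 14.6, 25.0 and 21.0 CPM in XZSW. The change was 0.05 in HUA against CTL (edgeR adjusted p = 0.903), 0.88 in XZSW against HUA (edgeR adjusted p = 0.0269) and 0.93 in XZSW against CTL (edgeR adjusted p = 0.0445). XZSW3 and XZSW4, which leaned to GC-rich transcripts, were the highest libraries. The rise against HUA was 1.02 with the library kind as a term (edgeR adjusted p = 0.0025) and 0.97 in flat libraries alone. It passed in 3 of the 8 fits that left out a library. It missed with library totals (edgeR adjusted p = 0.0676) and with only the 8 libraries compared (edgeR adjusted p = 0.0804). With limma it missed at a pseudocount of 1 or 0.1 (limma adjusted p = 0.0708 and 0.0747). The difference from CTL was 0.53 with the library kind as a term (edgeR adjusted p = 0.0811) and 0.53 in flat libraries alone.

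Adamts12, a protease of cartilage oligomeric matrix protein, rose in HUA by 2.21 log2 units (edgeR adjusted p = 0.0186), with 0.148 to 0.436 CPM in CTL, 0.295 to 1.84 CPM in HUA and 0.215 to 0.948 CPM in XZSW. HUA4 lay within the CTL range. Its relative Adamts7 was at 0.74 to 1.39 CPM in CTL, 0.698 to 3.40 CPM in HUA and 2.55 to 4.94 CPM in XZSW. Every XZSW library of Adamts7 was above CTL, and that change of 1.58 just missed (edgeR adjusted p = 0.0563). Adamts3 and Adamts14, relatives of Adamts2, the von Willebrand factor protease Adamts13, and Adamts6, Adamts8 and Adamts9 did not pass in any comparison. Their HUA changes included -0.62 in Adamts14, 0.35 in Adamts9 and 0.91 in Adamts13, and Adamts3 had the lowest adjusted p there (edgeR adjusted p = 0.204). Adamts17, Adamts18, Adamts19 and Adamts20 did not enter the test, with at most 14 counts in any library.

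**Figure D4:**
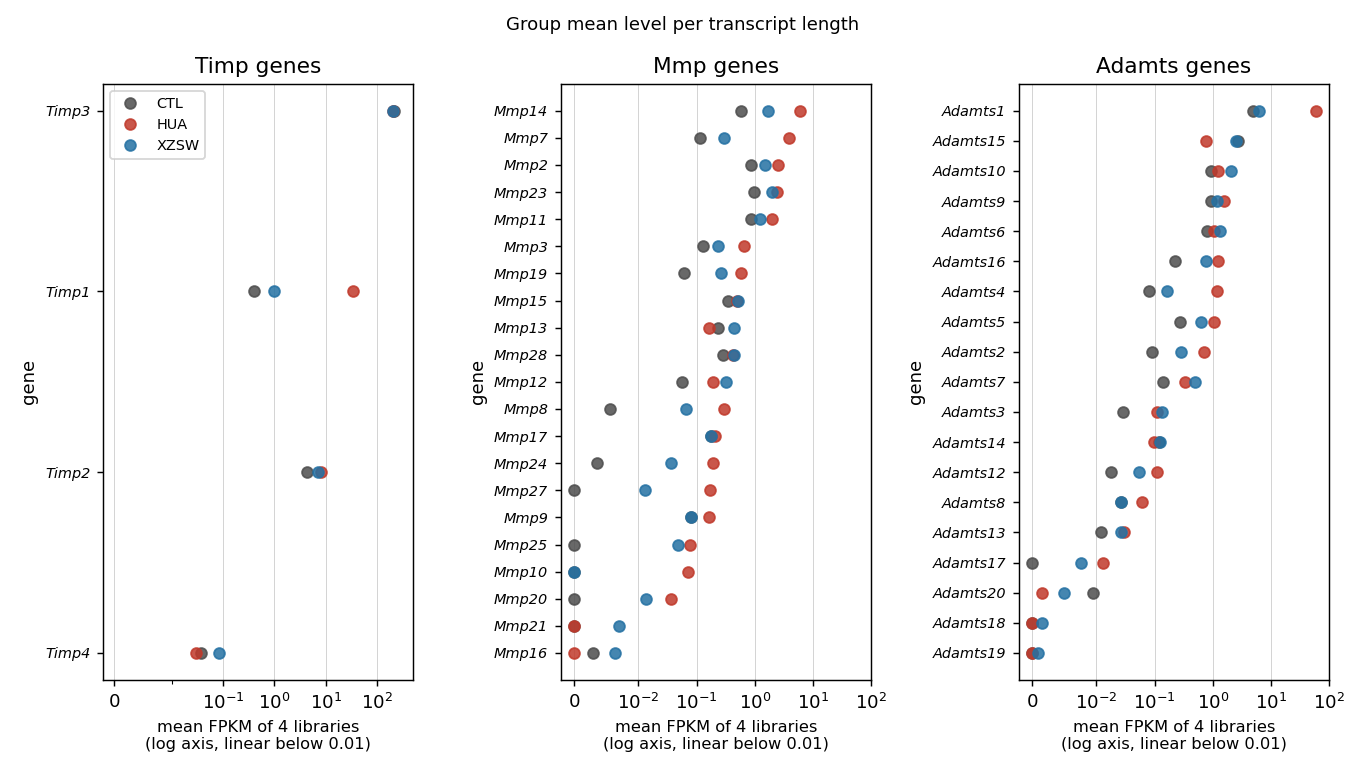
Mean FPKM of the 4 libraries of each group (log axis, linear below 0.01) for all 44 genes, ordered within each family by level; where points coincide the last drawn hides the others. Timp3 is near 200 FPKM in each group, Timp1 moves from 0.406 FPKM in CTL to 34.0 in HUA and 0.979 in XZSW, and Adamts1 from 4.95 to 58.4 and 6.31.

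In XZSW against CTL, 4 of the 35 genes were higher (Mmp25, Adamts5, Adamts10 and Adamts16) and none was lower, where 2.72% and 2.27% of all tested genes were, 4.99% in either direction. For lower genes, an unadjusted p under 0.05 in edgeR was reached by 0 of the 35 and an adjusted p in DESeq2 by 0. The median log2 change of the 35 genes was 0.77, against 0.04 for all tested genes. These calls were near the threshold, and Mmp25, without counts in CTL, could not be called lower. Of the 8 fits that left out a CTL or XZSW library, Adamts10 passed in 2, Adamts16 in 1, and Mmp25 and Adamts5 in 0.

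Other genes of matrix turnover were described from lists. Their counts stand beside the shares of all tested genes, 14.9% higher, 12.8% lower and 27.8% in either direction in HUA, and 7.09% higher, 8.34% lower and 15.4% in either direction with decoction. Of 11 tested genes of plasminogen activation, the protease system that activates several metalloproteinases, 6 rose and 2 fell in HUA, and 5 fell and 1 rose with decoction. Plaur, the urokinase receptor, rose by 4.25 log2 units and Serpinb6a, a serine protease inhibitor, by 1.82 (edgeR adjusted p = 3.81e-05 and 0.000129). Of 10 ADAM proteases, 4 rose in HUA, among them Adam8 (4.25), Adam12 (2.46) and Adam19 (1.94), and 4 of the 10 fell with decoction. Of 9 cysteine cathepsins and cystatins, 5 rose and 1 fell in HUA, among them Ctsl (1.57), Ctsc (1.84) and the inhibitor Cstb (1.69), and 3 fell with decoction.

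Of 6 ADAMTS-like proteins, which lack the protease domain, 2 rose and 1 fell in HUA: Adamtsl4 by 2.79, Thsd4 by 1.13 and Adamtsl2 by -0.96, and 1 of the 6 fell with decoction. Of 4 astacin proteases, Bmp1, which trims procollagen carboxyl ends, rose by 2.26 in HUA and the brush border meprin Mep1a fell (-1.18). With decoction 1 of the 4 fell. Of 11 activators and surface regulators, 1 rose (Spock2, 1.44) and 2 fell (Pzp, -2.44, and Pcsk5, -0.75) in HUA, and 2 fell with decoction. The called share of these 11 in HUA was close to the 27.8% of all tested genes, so the count is no result about the list. Of 19 matrix substrates, 15 rose in HUA, among them Spp1 (5.32) and Thbs1 (3.65), and 10 fell with decoction. Col1a1, collagen I, rose by 3.69 and Vcan, versican, changed by 1.72 without passing (edgeR adjusted p = 0.144). These lists were chosen with results of these samples known and are not independent evidence of direction.

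Cell type markers moved in the same libraries. For scale, 14.9% of all tested genes rose and 12.8% fell in HUA, and 7.09% rose and 8.34% fell with decoction. All 6 injured tubule markers rose in HUA and fell with decoction, and their summed level was 233 to 256 CPM in CTL, 1720 to 4920 CPM in HUA and 245 to 351 CPM in XZSW. Of 8 macrophage markers, 6 rose in HUA and 4 fell with decoction, with sums of 56.0 to 91.9, 224 to 339 and 56.6 to 152 CPM. Of 5 proximal tubule markers, 4 fell in HUA and 5 rose with decoction, with sums of 30700 to 35800, 6440 to 16400 and 18300 to 23400 CPM. Of 8 fibroblast and mural markers, 3 rose and 1 fell in HUA, and 1 rose and 1 fell with decoction. Their sums were 121 to 147, 186 to 398 and 105 to 272 CPM. Neutrophil markers summed to 0.603 to 2.26, 1.08 to 8.83 and 0.568 to 5.88 CPM, with 2 of 5 tested higher in HUA, Ly6g and Camp at 0 in CTL, and Camp, Elane and Mpo at 0 in HUA. The part of these cells in the changes of Timp1, Mmp14, Mmp7 and the Adamts genes was not tested. In whole kidney RNA, more or fewer cells of a type and more or less RNA per cell cannot be told apart.

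Further cell type markers were also counted. In HUA against CTL, 3 of 5 podocyte markers rose. Of 5 endothelial markers 1 fell, and of 5 markers of the loop, distal tubule and collecting duct 1 fell. Over all tested genes 12.8% fell there, so a count of 1 in 5 is no result about these lists. With decoction, 1 endothelial marker and 2 markers of the loop, distal tubule and collecting duct rose, where 7.09% of all tested genes rose. No podocyte marker passed with decoction. T and B cell markers summed to 0.797 to 2.46, 0.96 to 2.86 and 2.45 to 8.11 CPM, and adrenal markers to 3.33 to 5.96, 2.24 to 3.84 and 4.38 to 7.00 CPM, in CTL, HUA and XZSW. Summed adipose markers were 54.1 to 99.9 CPM in CTL, 35.4 to 69.5 CPM in HUA and 27.5 to 275 CPM in XZSW.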

How the data were processed

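Kidney RNA of 12 mouse libraries, 4 each of CTL, HUA and XZSW, was analysed. Per the labels' protocols, total RNA was extracted with TRIzol and libraries were strand-specific. Reads were processed with cutadapt 1.9 and HISAT2 2.2.1 on GRCm38, per the submitters' processing notes. What counted the reads, with which strand setting and annotation, is not given in the sources used here. Per the file headers, the authors deposited raw counts and FPKM values per gene. Both hold the same measurement: once libraries were rescaled, count divided by FPKM varied across libraries by a median of 0.0597% over 12864 genes. Counts of 4 (10674 values) were more frequent than counts of 3 (5919) or 5 (3763), so a count may not be a single read. Replicates differed by more than counting error, with a chi-square of 25.8 to 453 per degree of freedom.

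Genes were kept by filterByExpr, scaled by TMM and tested with edgeR 4.0.16 (quasi-likelihood F-test, R 4.3.3) over 12 libraries, with Benjamini-Hochberg adjustment over 19772 genes. Standard errors came from the F statistic. Floors of 3 counts cover counting error only, while the standard errors also hold the spread between libraries. GC slopes were fitted over 14448 genes, and a slope above 0.15 log2 units per 10% GC set the GC-rich kind of library. Alternatives used DESeq2 1.42.0 and limma 3.58.1 on log2(FPKM + 1), other filters and scalings, the library kind as a term, a replicate block and each library left out. Fits within each library kind were chosen after seeing the data.

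Genes given library by library were those called with a mean of at least 0.5 FPKM in some group, plus Timp1 to Timp4, Mmp2, Mmp9, Mmp14, Adamts1, Adamts4 and Adamts5. Mmp24 and Mmp25 were added library by library, and Adamts7 with its range, after their values were seen. Up to 3 called genes of each pathway list were named by smallest p in HUA against CTL, and Col1a1 and Vcan were added after their values were seen. The members, lists and rules were chosen with earlier results of these data known. Some genes that these rules would name are not reported here. Of the 44 genes, 37 had the same position in GENCODE M21.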

Additional observations from a re-analysis of the deposited data

Results flagged for a closer look

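In 51 groups of 4 libraries, 1 library stood apart from its group by Dixon's criterion in 5 cases, where chance gives about 1 in 20. Mmp14 in HUA3 was 55.0 CPM, with the other HUA libraries at 26.8 to 28.5 CPM. Adamts4 in CTL4 was 0.905 CPM, with the others at 0.333 to 0.366 CPM. Mmp9 in XZSW4 was 1.05 CPM, with the others at 0 to 0.175 CPM. Mmp23 in CTL3 was 2.41 CPM, below the others at 3.03 to 3.13 CPM, and without that library its rise in HUA did not pass (edgeR adjusted p = 0.0615). Timp4 in XZSW1 was 1.77 CPM, with the others at 0.107 to 0.135 CPM. Timp4 lies opposite Syn2, whose summed counts were 1029, 700 and 1805 in CTL, HUA and XZSW, and whether these entered Timp4 counts was not tested.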

How the results depend on the processing

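Of the 14 calls in HUA against CTL, 9 held in every setting that tested the gene. Among these 9, Mmp25 was tested in 15 settings and the others in 19. In XZSW against HUA 1 of 7 calls held in every setting (Adamts1), and in XZSW against CTL 0 of 4. The 13 genes higher in HUA were 19 with library totals, which move the median of all genes by 0.33 log2 units, and 11 to 16 with a library left out. Genes higher in XZSW than in HUA numbered 1 in place of 2 with library totals, with limma at a pseudocount of 1 or 0.1 and with only the 8 libraries compared, 0 in GC-rich libraries alone, and 1 to 2 with a library left out. The 5 genes lower in XZSW were 1 in GC-rich libraries alone, where fewer libraries were tested. There Timp1 was at -5.02, Mmp7 at -3.52, Adamts4 at -1.82 and Mmp14 at -1.25. The 4 genes higher in XZSW than in CTL were 0 with no count filter, 7 with DESeq2, 1 with limma at a pseudocount of 1, 1 with the library kind as a term and 0 to 2 with a library left out. Genes lower in XZSW than in CTL numbered 1 in flat libraries alone, in place of 0, and this was Mmp9. Other causes were not tested. With the library kind as a term, the HUA rise of Mmp23 was 0.35 (edgeR adjusted p = 0.327) and that of Mmp24 4.23 (edgeR adjusted p = 0.0571). Adamts12 missed without CTL1 or CTL3 (edgeR adjusted p = 0.0572 and 0.0554). A replicate block gave 12 higher and 1 lower, 2 higher and 5 lower, and 3 higher genes in the 3 comparisons. Mmp19 was lost in HUA against CTL (edgeR adjusted p = 0.0515), and Adamts16 and Mmp25 in XZSW against CTL (edgeR adjusted p = 0.0762 and 0.0715), so 1 of those 3 genes is not among the 4. Libraries of the same number correlated at -0.05 to 0.17, and the highest correlation with another number was -0.01 to 0.1. The same-number value was the higher in most cases. Values this weak cannot decide whether the numbers pair libraries. Mmp8, Mmp9, Mmp24, Mmp25, Timp4 and the 9 untested genes rest on few counts. No result changed direction past the threshold in any setting.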
